A study of Drosophila melanogaster with 266 samples.

Results

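The respiratory chain and ATP synthase of the mitochondrial inner membrane are built from subunits of 2 genomes, and the genes described here are nuclear ones: all coding genes of the expression table whose symbol begins with ND-, ATPsyn, or COX and a digit. The rule found 66 of 13931 coding genes, and each of the 66 was found by its identifier in a genome annotation on a nuclear chromosome, with 14 on 2L, 12 on 2R, 13 on 3L, 14 on 3R, 2 on chromosome 4 and 11 on X. Of these, 52 are main members, which encode the usual subunits: 34 of complex I (7 core and 27 accessory), 7 of complex IV and 11 of complex V. The other 14 carry an L (for "like") in their symbol and are paralogues of a subunit gene. A share of 16.7% of the members lay on X, against 15.6% of all coding genes found in the annotation.

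Complex I (NADH dehydrogenase, the ND- genes) and complex II feed electrons through complex III and cytochrome c to complex IV (cytochrome c oxidase, the COX genes), and complexes I, III and IV pump protons out of the matrix. Complex V (ATP synthase) lets the protons flow back through a ring of c subunits and makes ATP in its F1 head. The mitochondrial genome encodes the hydrophobic cores of complexes I, III, IV and V, so the nuclear members have to be made in proportion to one another and to those subunits. Neurons depend on this pathway for the ATP that restores ion gradients after electrical signalling, and fly photoreceptors are a textbook case of a costly sensory neuron. In flies several subunit genes have paralogues that are mostly known for expression in testis.

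The study was made to catalogue transcripts of identified cell types of the Drosophila visual system, mushroom body, central complex and muscle in adult flies. GAL4 or split-GAL4 drivers expressed a nuclear envelope tag, UNC84-2XGFP, the flies were frozen late in the light phase, and tagged nuclei were captured either by INTACT, which purifies nuclei by centrifugation and 1 capture, or by TAPIN, which captures them in 2 steps. Of the 266 libraries, 195 were of nuclei and passed the authors' quality control, 8 were total RNA of dissected lamina or of the optic lobe that remained, 47 were called sub-optimal and 16 were controls. The values are TPM (transcript abundance per transcript length, scaled to a fixed sum in each library) and depth is unknown.

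The results below use 67 single cell types with 167 libraries: 54 neuron types grouped as other neurons, 4 photoreceptor types (R1-6, R7, R8_Rh5, R8_Rh6), 4 Kenyon cell types of the mushroom body (KC_ab_c, KC_ab_p, KC_ab_s, KC_gd), 3 glia types (Glia_Eg, Glia_Mg, Glia_Psg) and 2 muscle types (Muscles_App, Muscles_Head). All carry the tag transgene, and each type is only what its driver labels: the study states that the Glia_Eg drivers also label marginal glia and ocellar photoreceptors, that the Dm1 and Tm20 drivers appear to share labelled pigment cells, and that the PAM_4 driver may include cells that are not neurons. Both muscle types come from 1 driver, BL-1767, with the 5XUAS reporter, and the appendage nuclei from material left after the heads were removed, although the labels give the tissue of both as head. Total RNA came from flies of the drivers SS55439 (d1) and SS00796 (d2). By limma at adjusted p under 0.05, all 8 photoreceptor markers were higher in the photoreceptors and 10 of 11 tested muscle markers in the muscle types. So were 4 of 5 tested glia markers in the glia, and all 5 neuron markers were lower in glia and in muscle. The lists did not separate the classes fully. In muscle 3 of 5 tested glia markers were also higher, and in glia 3 of 11 tested muscle markers. Muscle markers summed to 5730 TPM in LC10b, one of the other neurons, and to 2827 in Muscles_Head.

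The capture protocol moved with the level of the members and with the classes, and has to be read beside every level. In 16 types all libraries were INTACT, all of them among the other neurons. In 48 types all were TAPIN, and 3 types (R1-6, Dm12 and Lawf1) had both. Over the libraries that passed, the median TPM of the 52 main members lay between 56.5 and 253.3 in the 46 INTACT libraries (middle 134.7) and between 21.7 and 141.1 in the 149 TAPIN libraries (middle 52.1). The median of all coding genes had its middle at 10.4 TPM in INTACT and 6.02 in TAPIN, and 12106 against 10393 genes were above 0. Protocol and cell type cannot be told apart outside the 3 types that have both.

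Across the 67 types the median of the main members ran from 21.3 TPM in PAM_3, a dopaminergic type, to 231.3 TPM in L1, a lamina monopolar neuron that receives photoreceptor input. The 4 libraries of L1 lay between 209.4 and 253.3 TPM and those of L5 between 199.2 and 238.3, so these 2 neighbours overlapped. Next came Lai at 161.7, L3 at 159.1, Tm4 at 158.4 and L2 at 157.8. The libraries of Lai (155.4 to 176.5), L3 (157.9 to 164.5) and L2 (153.3 to 161.0) overlapped, and those of Tm4 (140.3 to 152.6) lay below them, since the level of a type is taken from the mean profile of its libraries. The highest types with only TAPIN libraries were Dm10 at 137.7 and TmY3 at 137.2 TPM.

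**Figure D1:**
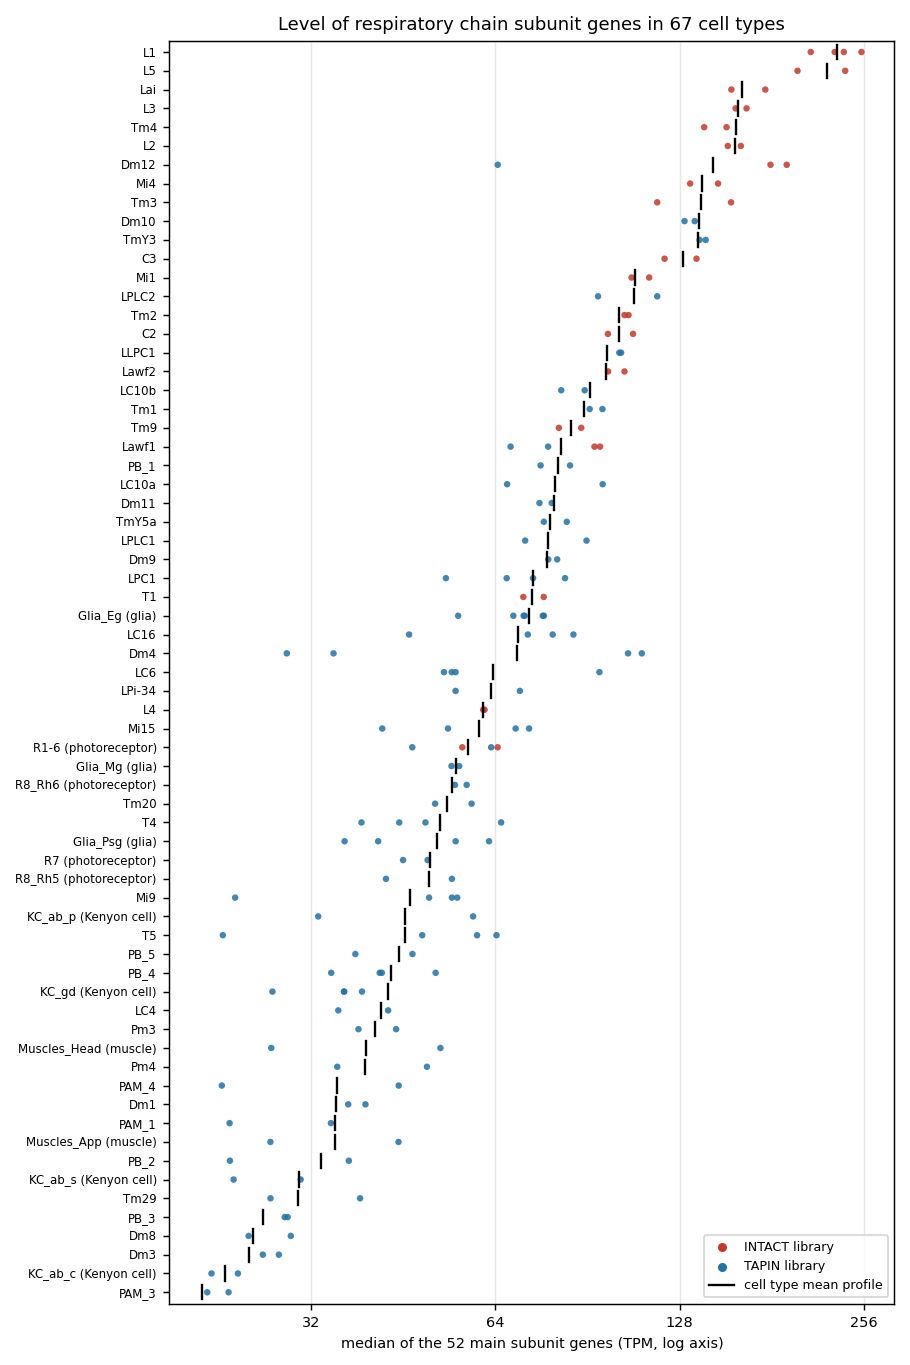
Median TPM of the 52 main members (horizontal log axis) in 67 cell types (rows), with a point for each library, red for INTACT and blue for TAPIN, and a black bar for the median in the mean profile of the type. L1 at 231.3 TPM and L5 at 222.4 TPM lie at the top, PAM_3 at 21.3 TPM at the bottom, and photoreceptors (50.0 to 57.8), Kenyon cells (23.2 to 45.7) and muscle (35.0 and 39.4) lie below the middle of the order.

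One lamina monopolar type stood apart from the others. L4 had a median of 61.2 TPM, with both libraries close together at 61.2 and 61.5, and was the lowest of the 16 INTACT types. More genes were above 0 in L4 (13025) than in L1 (11776), and the part of this in the level was not tested. The lowest types overall were PAM_3, KC_ab_c at 23.2, Dm3 at 25.4, Dm8 at 25.7 and PB_3 at 26.7 TPM, all TAPIN. The spread between libraries of 1 driver (SD of log2 of the member median) was 0.28, against 0.82 between the means of the 67 types. Within TAPIN these were 0.315 and 0.631, and within INTACT 0.111 and 0.558, so types differed by more than replicates of 1 driver under either protocol. Drivers of 1 type could also differ. Dm4 had 29.3 and 34.9 TPM with driver d1 and 111.0 and 105.4 with d2, all TAPIN, while the drivers of L1 overlapped (229.1 and 253.3, 237.1 and 209.4). In types with only 1 driver, type and driver cannot be told apart.

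The members kept a shared order while the level changed. The rank order of the main members in a type had a Spearman rho with the mean of the other types between 0.82 (R7) and 0.976 (TmY5a), with the middle at 0.927. Their means span 1.85 to 1445 TPM, and rho was not computed for other genes, so it does not set the members apart. Complex IV genes stood above complex I genes throughout: the ratio of their medians lay between 1.69 (LPi-34) and 5.03 (Glia_Psg), with the middle at 2.94, and was 2.44 to 3.49 in dissected tissue. The ratio of complex V to complex I lay between 1.37 (PB_3) and 4.37 (PAM_3), with the middle at 2.34. These TPM are per transcript length, and the ratios are of RNA and not of protein.

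In complex V single genes differed widely in mean TPM over the 67 types. ATPsynC, which encodes the proton-carrying ring, was the highest of all members at 1445 TPM, and ranged from 254.7 in KC_ab_s to 4146 in L1. ATPsynbeta, the catalytic subunit of the F1 head, averaged 325 TPM and ranged from 51.95 in KC_ab_s to 964 in L2. ATPsyngamma of the central stalk was the lowest of the 11 at 48.8 TPM, while ATPsyndelta, also of the central stalk, averaged 183.9. In complex IV the highest was COX6B at 331 TPM (101.0 in KC_ab_c to 732 in L1) and the lowest COX8 at 35.6 TPM, with a middle of 179.8. The 7 core subunits of complex I, which belong to its catalytic part, ran from 22.7 TPM for ND-75 to 177.4 for ND-49, and the 27 accessory subunits from 1.85 for ND-B8 to 283 for ND-MLRQ.

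**Figure D2:**
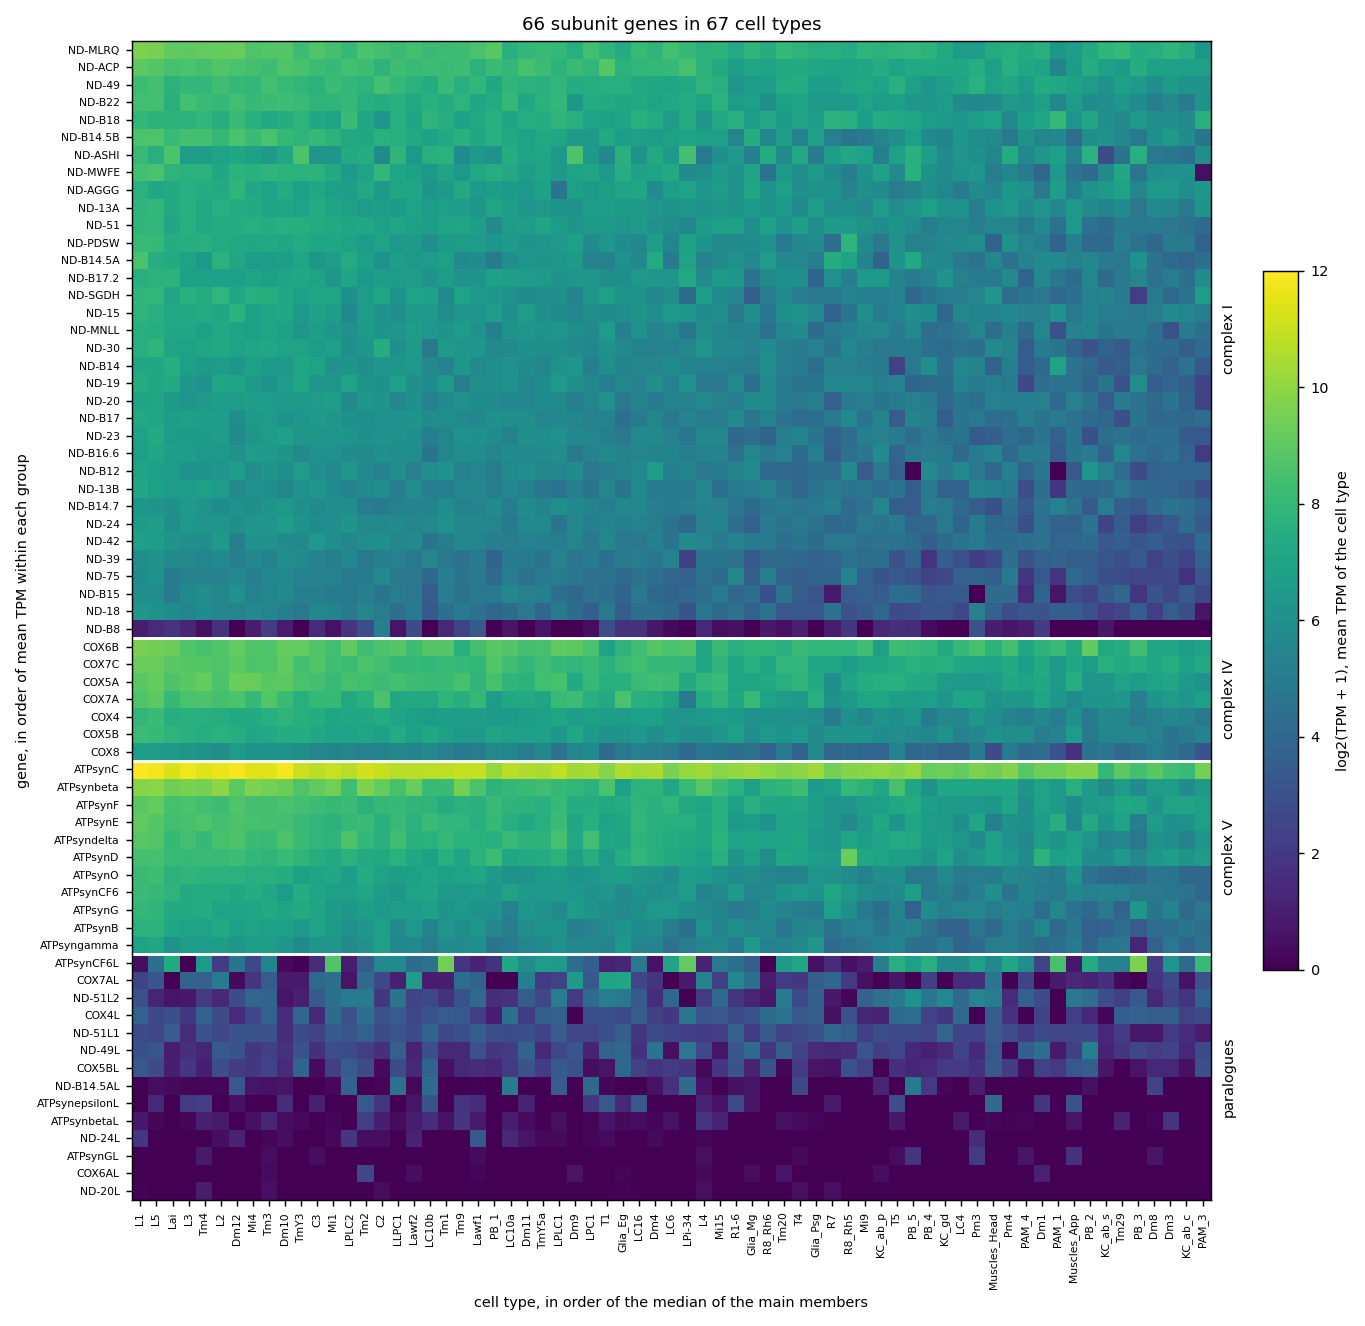
Level of all 66 members (rows, in order of mean TPM within complex I, complex IV, complex V and the paralogues) in 67 cell types (columns, in order of the median of the main members), with colour for log2(TPM + 1). The main members fade together from L1 to PAM_3, with ATPsynC the brightest main member in every type and ND-B8 dark in nearly all, while the paralogues change from type to type.

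A few main members were at or near 0 in single types where their partners were not. ND-B12, an accessory subunit of complex I, was listed at 0 in PAM_1 and PB_5 and reached 127.7 TPM in L1, and ND-B15, another accessory subunit, was listed at 0 in Pm3 and reached 65.8 TPM in Dm12. These 2 had the largest spread of the main members over the types, with an SD of 1.40 and 1.42 on the log2(TPM + 1) scale. ND-MWFE, also an accessory subunit, had 0.395 TPM in PAM_3. With no read counts, a listed 0 cannot be told apart from a failed estimate.

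ND-B8 was the exception among the main members. It was the only one below a mean of 20 TPM, at 1.85, with 35.8 ± 9.16 TPM (SD, n = 2) in C2, 9.37 ± 11.01 (n = 4) in Lawf1 and less in all others. It was listed at 0 in all of the lamina and averaged 0.64 TPM in the remaining optic lobe, where the next lowest main member, ND-B15, averaged 76.3.

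The authors also fitted each gene with a model that gives a probability of being on in a cell type, taken here as on at 0.8 or more and off at 0.2 or less. By that measure 17 of the 52 main members were on in all 67 types: ATPsynB, ATPsynbeta, ATPsynC, ATPsynD, ATPsynF, COX4, COX5A, COX5B, COX6B, COX7C, ND-75, ND-B14.5A, ND-B14.5B, ND-B17, ND-B18, ND-MLRQ and ND-SGDH. A total of 36 were on in 60 or more types, and a single type had between 31 (PAM_3) and 52 of the 52 on. The study also found many other genes on in all cell types. No share over all modelled genes is given here, so these counts do not set the members apart. The state is relative to each gene's own distribution: ATPsyndelta, of the central stalk, was off in 14 types in which it had 26.7 to 90.7 TPM, while ND-75 was on in KC_ab_c at 2.35 TPM. So an off state of a main member did not mean absence of its RNA.

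The main members varied together across cell types. Over the 67 types the median correlation between pairs of the 51 main members that passed the filter was 0.736 on the log2(TPM + 1) scale, against 0.121 for pairs of all 10411 genes tested. After the median of all genes in each type was subtracted these were 0.512 and 0.0128. Within the 48 TAPIN types the pairs had a median of 0.597 (0.43 after centring) and within the 16 INTACT types 0.836 (0.866). These are descriptions: the types share protocols, and the member median also moved with the number of genes above 0, with r = 0.635 over 67 types, 0.468 within TAPIN and -0.691 within INTACT.

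The gene whose pattern was most like the median of the main members was itself a subunit that the symbol rule does not catch. Of 10352 other genes, cype, a nuclear subunit of complex IV, ranked first with r = 0.922 over the 67 types, and levy, another complex IV subunit, ranked second with r = 0.916. RFeSP, the iron-sulphur subunit of complex III, ranked 4 with r = 0.908 and UQCR-C2, a core subunit of complex III, rank 7 with r = 0.902. Other genes of these complexes ranked far lower, such as ox at 1408 and UQCR-11 at 3005 of complex III and SdhAL, a paralogue in complex II, at 4413. These 7 were named after their values were seen. Of the main members 50 of 52 had an r above 0.5 with the median that they make up, while 0 of the 14 paralogues and 32.5% of the other genes did. The lowest main members were ND-B8 at 0.371 and ND-ASHI, an accessory subunit of complex I, at 0.469.

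Other steps of energy metabolism followed the members to different degrees. The median of the 4 chain subunits with other names (blw and sun of complex V, cype and levy of complex IV) had r = 0.954 with the member median, complex III with cytochrome c 0.916, complex II 0.904 and 7 genes of the citric acid cycle 0.82. Glycolysis had r = 0.617 over all types, 0.401 within TAPIN and -0.302 within the 16 INTACT types. T1 shows the last: its glycolytic genes had the highest median of all types at 988 TPM, and its respiratory members stood at 73.4. Among lamina monopolar types glycolysis ran from 345 TPM in L1 to 519.5 in L3, with L4 at 495 TPM. The 13 genes of the mitochondrial genome, which made up 0.0045% to 0.696% of the TPM in nuclei that passed, had r = -0.512 over all types and 0.505 within INTACT. The part of RNA carried over into the captures in these values was not tested.

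The paralogues did not follow the main members. Their r with the member median ran from -0.282 (ATPsynCF6L) to 0.382 (ND-51L1), and their mean TPM from 0.0453 for ND-20L to 86.2 for ATPsynCF6L. ATPsynbetaL, ATPsynGL, COX6AL and ND-20L stayed below 5 TPM in every type and were not modelled by the authors. ATPsynGL, COX6AL and ND-20L were the 3 lowest members, with means of 0.182, 0.133 and 0.0453 TPM. COX5BL and ND-49L were on in 0 types, and 5 further members were on in 3 to 17 types. COX4L and ND-51L1, paralogues of COX4 and ND-51, were on in 45 and 54 types at low levels, up to 25.1 TPM in LPi-34 and 14.96 TPM in R7.

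ATPsynCF6L had the largest spread of all members, with an SD of 2.78 on the log2(TPM + 1) scale. Its parent ATPsynCF6 encodes coupling factor 6 of the peripheral stalk. ATPsynCF6L had 802.7 ± 146.9 TPM (SD, n = 2) in PB_3, 690.3 ± 28.1 (n = 2) in Tm1, 562.5 ± 28.5 (n = 2) in LPi-34 and 428.8 ± 32.1 (n = 2) in Mi1. It was on in 40 types and was listed at 0 in L3, R8_Rh6 and TmY3. Where it was highest its parent was not: ATPsynCF6 had 26.7 TPM in PB_3, 86.5 in Tm1 and 159.6 in L3, and the correlation of the pair over the 67 types was -0.266.

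COX7AL, a paralogue of the complex IV subunit gene COX7A, was on in 17 types. It had 137.5 ± 61.4 TPM (SD, n = 6) in Glia_Eg, with libraries from 31.9 to 198.2, then 129.8 ± 7.63 (n = 2) in T1, 94.0 ± 0.12 (n = 2) in Lawf2, 87.8 ± 8.35 (n = 2) in Dm9 and 47.4 ± 14 (n = 4) in R1-6. These types are glia, neurons and photoreceptors, so no class held it. In T1 the parent COX7A stood at 149.7 TPM, close to the paralogue, and in Glia_Eg at 373. In total RNA COX7AL was low, at 1.40 TPM in the lamina and 0.657 in the remaining optic lobe.

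The other restricted members, those on in at most 20 types, were lower than COX7AL at their highest and on in fewer types. ND-B14.5AL was on in 10 types: LC10a had 30.7 ± 15.4 TPM (SD, n = 2), PB_5 29.2 ± 11.7 (n = 2) and LLPC1 21.6 ± 2.14 (n = 2), and its parent ND-B14.5A had 58.5 in LC10a and 149.3 in PB_5. ATPsynepsilonL, a paralogue of sun, which encodes the epsilon subunit, was on in 7 types and highest in Muscles_Head at 16.2 ± 5.18 TPM (n = 2), with 7.38 ± 3.87 (n = 2) in Muscles_App. ND-24L was on in 3 types, with 8.44 ± 4.36 TPM (n = 4) in Lawf1, 2.84 ± 2.06 (n = 4) in L1 and 2.74 ± 3.02 (n = 2) in LPLC2. ND-51L2, a paralogue of the core subunit ND-51, was not restricted in this sense. It was on in 31 types and reached 67.5 ± 1.69 TPM (n = 2) in PB_5. ND-49L was never on, yet had 34.8 ± 2.86 TPM (n = 2) in PB_2 and 26.4 ± 1.6 (n = 2) in LPi-34, as much as ND-B14.5AL where it was on.

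The position of the paralogues in the genome bears on these values. Of the 14 paralogues 7 lie inside the span of another coding gene, against 1 of the 52 main members (Ensembl annotation of the assembly BDGP6). No share over all coding genes is given here, so these counts do not show which group is unusual. ATPsynCF6L, at chr3L:5011444-5012133 on the minus strand, lies between exons of Con (connectin, a cell adhesion gene; chr3L:4936758-5079033), on the same strand and without exon overlap. ND-51L2 lies on the same strand inside Trpm, which encodes a cation channel, and ND-B14.5AL, at chr3L:22606369-22607126, on the opposite strand inside CG14459. ND-49L lies on the opposite strand inside Fur1, which encodes a proprotein convertase, ND-51L1 inside Smurf, which encodes a ubiquitin ligase, and COX6AL inside Cyp4aa1. COX5BL lies inside CG9596 and shares exon sequence with it on the other strand. This relation and the host genes were looked up after the paralogues' values were seen.

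Of these paralogues 4 followed their host across the cell types. ATPsynCF6L had r = 0.871 and rho = 0.858 with Con (0.901 within TAPIN and 0.778 within INTACT), and Con was the third most alike of 10410 genes. ND-51L2 had r = 0.886 with Trpm, which ranked first, and -0.116 with its parent ND-51. ND-B14.5AL had r = 0.881 with CG14459, which also ranked first, but rho was 0.598 and r within INTACT 0.297. ND-49L had r = 0.713 with Fur1, the second most alike gene. ND-51L1 did not follow Smurf, with r = -0.101, and COX5BL had r = 0.033 with CG9596.

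Con was high where ATPsynCF6L was high and low in most types where it was absent. Con had 1122 TPM in PB_3, 1526 in Tm1, 516.6 in LPi-34 and 1282 in Mi1, and 8.90 TPM in TmY3, 4.68 in R8_Rh6 and 2.12 in Dm10. The 2 parted in several types: Con had 88.0 TPM in L3, 107.9 in L2, 97.3 in PB_1 and 90.9 in Dm8, where ATPsynCF6L had 0, 3.37, 2.41 and 3.44 TPM. Trpm had 446.3 TPM in PB_5 and 14.4 in LPi-34, where ND-51L2 was listed at 0. CG14459 had 3624 TPM in LC10a, 5300 in PB_5 and 3.44 in L1. Summed over types, ATPsynCF6L came to 36.3% of Con in nuclei and 17.3% in total RNA of dissected tissue, and ND-51L2 to 14.1% and 9.81% of Trpm. For ND-B14.5AL these were 0.612% and 0.688% of CG14459, and for ND-49L 2.02% and 1.87% of Fur1. The sums in nuclei include types from outside the optic lobe, such as PB_3 and PAM_1, and the total RNA does not. Cell composition and kind of RNA therefore cannot be told apart in these percentages. Other genes inside the same hosts moved with them too: CG17030 had r = 0.814 and t-Grip128 r = 0.789 with Con, and Muc96D had r = 0.911 with Fur1. Nuclear RNA holds unspliced transcripts, whose intron sequence can match a gene that lies in the intron, and the part of such reads in the levels of these paralogues was not tested.

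**Figure D3:**
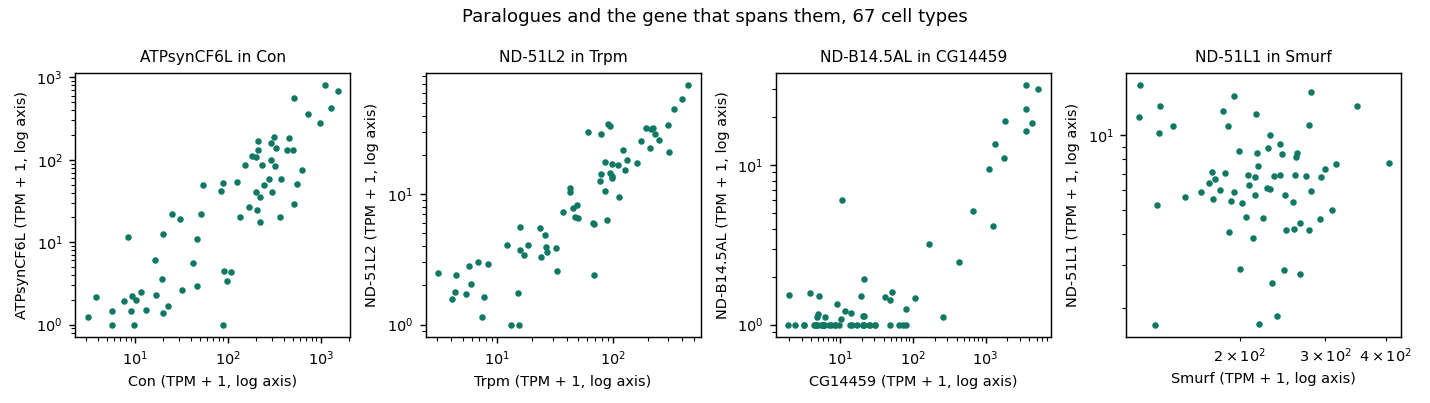
TPM + 1 of 4 paralogues (vertical log axis) against TPM + 1 of the coding gene that spans each (horizontal log axis), with 1 point for each of 67 cell types. ATPsynCF6L, ND-51L2 and ND-B14.5AL rise with Con, Trpm and CG14459 (r of 0.871, 0.886 and 0.881), and ND-51L1 shows no rise with Smurf (r of -0.101).

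Among the main members ND-MNLL alone lies within another coding gene, CG45089, with which it shares exon sequence on the same strand. The 2 had r = 0.948, with summed values of 4174 and 3609 TPM over the types, and how the reads were split between them is uncertain. ND-15, ND-ASHI, ND-B8, ND-MWFE, ND-SGDH, ATPsynbeta and ATPsyndelta are among those that share exon sequence with a gene on the other strand, and COX6B and ND-MWFE with one on their own, so their values are uncertain to that extent. COX7AL lies in no host.

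In muscle 7 of 59 members passed the test as lower than in other neurons, a share near the 8.8% of all genes. The fitted differences of the 51 main members tested were all below 0, with a median difference of -0.97 on the log2(TPM + 1) scale against -0.07 for all genes, and 0 members passed as higher (limma, adjusted over 10411 genes), against 15.2% of all genes. The medians of the main members in the 2 types, 35.0 and 39.4 TPM, lay within the range of other neurons (21.3 to 231.3). By complex the 7 were ATPsynE and ATPsynF of the membrane part of complex V, COX8, and ND-15, ND-AGGG, ND-MWFE and ND-PDSW, all accessory subunits of complex I. A total of 17 of the 59 members had an unadjusted p under 0.05 (limma), as did 3386 of the 10411 genes.

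COX8, a small subunit of complex IV, fell furthest in muscle. It had 2.29 TPM in Muscles_App and 5.98 in Muscles_Head, both below the lowest other neuron at 7.21, with a middle of 34.5 and a highest of 100.3 there. The difference was -2.84 (SE 0.64, limma adjusted p = 0.000343), or -2.34 without Muscles_App (adjusted p = 0.0884). ND-MWFE had 23.0 and 32.8 TPM in muscle against a middle of 120.0 in other neurons, with 5 other types at or below the higher of the muscle values, and a difference of -2.55 (SE 0.89, adjusted p = 0.0276). ND-PDSW had 34.9 and 13.0 TPM against a middle of 79.1, with 9 other types at or below the higher muscle value (-2.26, SE 0.75, limma adjusted p = 0.0192). Neither passed without Muscles_Head (adjusted p = 0.362 and 0.578), and ND-MWFE did not pass with TAPIN libraries alone (adjusted p = 0.0721) or without Muscles_App (adjusted p = 0.112).

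Genes of the mitochondrial genome were higher in the muscle libraries: 6 of 12 tested genes rose, with a list median of 2.24. Their share was 0.307% and 0.452% of TPM in the muscle types against a middle of 0.0469% in other neurons. It was 0.855% and 1.75% in TAPIN captures without a driver, and 0.705% and 0.764% in Tm1 mock captures after both steps. The libraries are of captured nuclei, and the part of carried-over RNA in the muscle share was not tested. Of complex III with cytochrome c 3 of 13 fell, of complex II 0 of 5 and of glycolysis 0 of 12. The count of members in muscle depended on the types and the scaling. It was 3 without Muscles_App and 1 without Muscles_Head, and 21 with quantile normalization, under which 1675 of all genes were lower and 1617 higher. With TAPIN libraries alone it was 5, the median of the main members was -0.63 and that of all genes 0.17. Glia markers came to 2433 to 2735 TPM in the muscle types, against a middle of 127.6 in other neurons. Of 5 tested 3 were higher and 0 lower, with a list median of 3.20. Fat body and blood markers came to 1813 TPM in Muscles_App and 14310 in Muscles_Head against a middle of 1162, with 0 of 5 tested past the threshold in either direction and a list median of 1.74. Of 3 tested pigment cell markers w alone rose, but w was on in 65 types, at 146.4 to 1968 TPM, and so did not mark pigment cells alone. The part of other cells in the result was not tested.

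In Kenyon cells the fitted differences of all 51 main members from other neurons were also below 0, with a median of -1.23 against -0.51 for all genes. A total of 11 members fell and 0 rose (limma), against 6.08% and 2.05% of all genes. By limma 38 of the 59 members had an unadjusted p under 0.05, as did 2769 of 10411 genes. The 11 included the highest genes of complexes IV and V: ATPsynC (-1.45, adjusted p = 0.0334), ATPsynbeta (-1.73, adjusted p = 0.0365) and COX6B (-1.36, adjusted p = 0.00358). The other 8 belong to complex I and include the core subunits ND-20, ND-49 and ND-75.

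ND-ASHI showed the largest drop in Kenyon cells. It had 19.8 TPM in KC_ab_c, 35.8 in KC_ab_p, 5.71 in KC_ab_s and 52.9 in KC_gd, against 22.9 to 406.6 with a middle of 106.0 in other neurons, of which 7 types lay at or below the highest Kenyon type. The difference was -2.29 (SE 0.50, limma adjusted p = 0.00209), and -1.68 without KC_ab_s (adjusted p = 0.124). ND-B14.5A, an accessory subunit, had 13.9, 12.6, 29.6 and 47.6 TPM in the same order against a middle of 69.8, with 16 other types at or below the highest Kenyon type (-1.86, SE 0.48, limma adjusted p = 0.01). ND-75, a core subunit that carries iron-sulphur clusters, had 2.35 to 7.54 TPM against a middle of 22.1, with 8 other types at or below the highest Kenyon type (-1.74, SE 0.52, limma adjusted p = 0.0264). ND-B14.5A and ND-75 did not pass with quantile normalization (adjusted p = 0.059 and 0.0855) or without KC_ab_c or KC_ab_s, and ND-75 did not pass without KC_gd or with TAPIN libraries alone (adjusted p = 0.106).

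Related genes fell in Kenyon cells too: 3 of the 4 chain subunits with other names, 5 of 7 citric acid cycle genes, 1 of 13 of complex III with cytochrome c and 1 of 5 of complex II. Glycolysis had 0 of 12 in either direction. All Kenyon libraries are TAPIN. With TAPIN libraries alone 4 members passed, the median of the main members was -0.79 and that of all genes -0.28. Quantile normalization left 2, with 170 of all genes lower and 269 higher, and leaving out KC_ab_c, KC_ab_s or KC_gd left 2, 1 or 5. Without PAM_4 and Dm1, whose drivers may label other cells, 18 passed, and 18 also without Tm20.

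**Figure D4:**
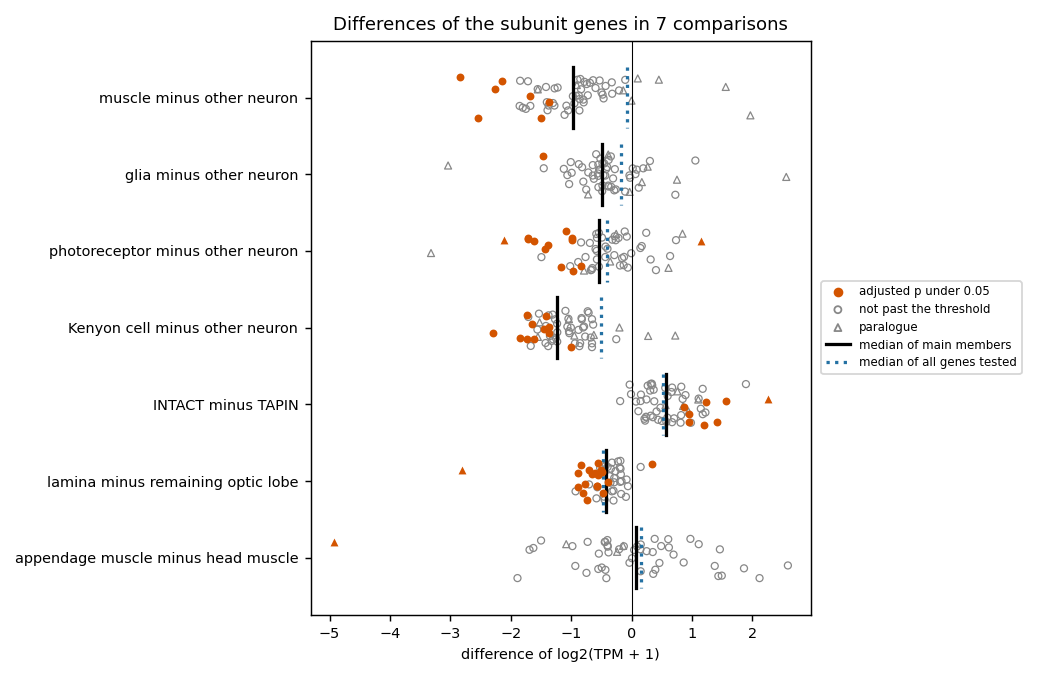
Difference of log2(TPM + 1) (horizontal axis) of each tested member in 7 comparisons (rows), with orange for adjusted p under 0.05, triangles for paralogues, a black bar for the median of the main members and a dotted bar for the median of all genes. Muscle (-0.97 against -0.07) and Kenyon cells (-1.23 against -0.51) show the members furthest below all genes, and ATPsynCF6L lies apart at -2.81 in lamina and -4.93 in appendage muscle.

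In photoreceptors the members as a whole lay close to all genes. The median difference from other neurons was -0.54 for the main members and -0.41 for all genes. A total of 12 members fell and 1 rose (limma), against 19.7% and 10.3% of all genes, so the share of members that fell was near that of all genes. ND-15, an accessory subunit of complex I, was the clearest. It had 25.7 TPM in R1-6, 12.3 in R7, 24.6 in R8_Rh5 and 25.1 in R8_Rh6, all below the lowest other neuron at 26.4, with a middle of 64.6 there, and differed by -1.72 (SE 0.38, adjusted p = 0.000268). ND-B14.5B, another accessory subunit, had 24.7 to 44.6 TPM against a middle of 120.9, with 5 other types at or below (-1.72, SE 0.54, adjusted p = 0.0112), and did not pass without R8_Rh5 (adjusted p = 0.0638). ND-15 passed under all alternatives run.

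The paralogue with the largest difference, ATPsynCF6L, did not pass (-3.32, SE 1.34, limma adjusted p = 0.0509), with 20.9 TPM in R1-6 and 0 to 1.66 in the others, while its host Con fell by 3.23 (adjusted p = 0.0151). Both paralogues that passed also lie inside other genes. ND-51L2 had 2.83, 0.76, 0.14 and 0.705 TPM in R1-6, R7, R8_Rh5 and R8_Rh6 against a middle of 7.07 in other neurons, of which 15 types lay at or below the highest photoreceptor type (-2.11, SE 0.76, limma adjusted p = 0.0285). Without R7, R8_Rh5 or R8_Rh6 it did not pass, and its host Trpm differed by -2.01 (adjusted p = 0.0878). ND-51L1 rose, with 12.1, 14.96, 10.9 and 9.24 TPM against a middle of 5.24 and a highest of 13.49 in other neurons, so the ranges overlapped (1.15, SE 0.37, limma adjusted p = 0.013). Its host Smurf fell by 0.76 (adjusted p = 0.000426).

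Glycolytic genes were lower in photoreceptors: 11 of 12 fell, with a list median of -2.28, and the median TPM of the list was 29.3 to 44.1 in the 4 types against a middle of 123.7 in other neurons. Of complex III with cytochrome c 5 of 13 fell and 1 rose, and of the citric acid cycle 3 of 7 fell. The count of members was sensitive to the scaling and the types. With quantile normalization 5 fell and 2 rose (1639 and 1629 of all genes), with TAPIN libraries alone 5 fell, and leaving out R1-6, R7, R8_Rh5 or R8_Rh6 left 7, 3, 3 or 4 that fell. The 1 that rose was lost without R7.

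In glia 1 member passed, ND-B17.2, an accessory subunit of complex I, which was lower, and 0 were higher (limma), against 13.3% and 12.5% of all genes. It had 62.8 TPM in Glia_Eg and 22.8 in Glia_Mg, within the range of other neurons (13.58 to 217.6, middle 79.0), and 13.56 in Glia_Psg, just below it, and differed by -1.46 (SE 0.56, adjusted p = 0.0461). Without Glia_Mg or Glia_Psg it did not pass, nor with TAPIN libraries alone (adjusted p = 0.115). By limma 3 of 59 members had an unadjusted p under 0.05, as did 3604 of 10411 genes. With quantile normalization 1 member was higher and 1 lower. The median of the main members was -0.48 against -0.18 for all genes, and -0.11 against 0.08 with TAPIN libraries alone. COX7AL averaged the highest of all types in Glia_Eg, but over the 3 glia types it did not pass (2.56, SE 1.07, adjusted p = 0.0686).

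In the 3 types with both protocols the members were higher with INTACT by a median of 0.57, close to the 0.53 of all genes. A total of 8 members rose and 0 fell (limma), against 14.8% and 2.09% of 8696 genes. By limma 22 of 58 members had an unadjusted p under 0.05, as did 3203 of the 8696 genes. The 8 were ATPsynB and ATPsynCF6 of the peripheral stalk, ATPsynCF6L, and ND-B12, ND-B17, ND-MNLL, ND-MWFE and ND-SGDH of complex I. The Lawf1 libraries of the protocols also differ in driver.

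ATPsynCF6L rose most, with 25.3 and 42.6 TPM in Dm12 by INTACT and 3.15 by TAPIN, 47.4 and 27.3 against 5.77 and 3.06 in R1-6, and 1.69 and 2.42 against 0.75 and 0 in Lawf1. The 2 protocols did not overlap in any of these types, and the difference was 2.26 (SE 0.45, limma adjusted p = 0.0095). It did not pass with quantile normalization (1.27, limma adjusted p = 0.153). Its host Con differed by 0.85 (adjusted p = 0.0912). With the replicate number as a block ATPsynCF6L (1.20, adjusted p = 0.283), ND-SGDH and ND-B12 did not pass. In R1-6 and Dm12 the TAPIN libraries share no replicate number with the INTACT ones. That fit therefore compared the protocols in Lawf1 alone, across different drivers, and cannot speak for the other types. ND-SGDH, an accessory subunit, had 190.6 and 224.9 TPM by INTACT against 12.4 by TAPIN in Dm12 (1.57 over the 3 types, SE 0.45, adjusted p = 0.0373), and ND-B12 196.7 and 87.9 against 19.4 (1.41, SE 0.37, adjusted p = 0.0267). The count fell to 3 without Lawf1_d1 replicate 1 or 2, R1-6_d1 TAPIN replicate 3 or Lawf1_d2 replicate 1, and to 4 without either Dm12 INTACT library, Lawf1_d2 replicate 2 or the only Dm12 TAPIN library. Without that last library the median was 0.17. Quantile normalization left 2 members and a median of 0.23, with all genes at -0.02 and 327 genes higher and 355 lower. ND-SGDH and ND-B12 did not pass with it (adjusted p = 0.0879 and 0.136).

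**Figure D5:**
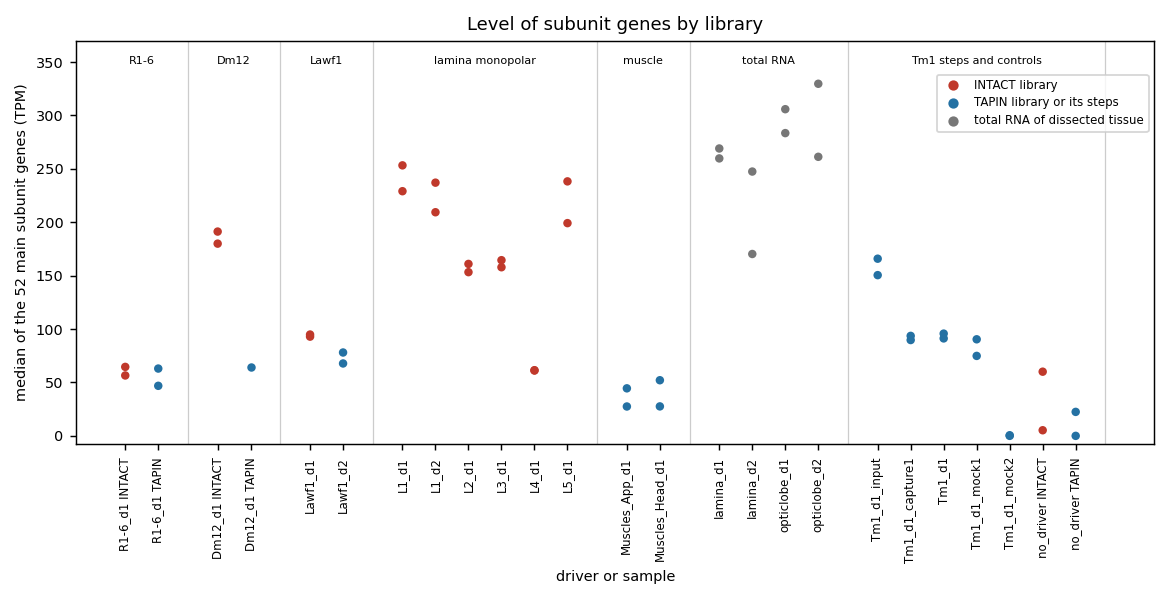
Median TPM of the 52 main members (vertical axis) in single libraries, by driver or sample, with red for INTACT, blue for TAPIN or its steps and grey for total RNA. The Dm12 libraries stand at 180 to 191 TPM by INTACT and near 65 by TAPIN, L4 stands at 61 beside L1 at 209.4 to 253.3, and mock captures after both steps stand at 0 to 0.565.

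Total RNA lay at the top of the range of nuclei or above it. The member median was 261.3 to 329.7 TPM in the 4 libraries of the remaining optic lobe and 170.3 to 269.1 in the 4 of the lamina, where lamina_d2 replicate 1 was the lowest. In that library the mitochondrial genome made up 24.6% of TPM, against 11.2% to 12.0% in the other lamina libraries and 8.04% to 9.26% in the optic lobe. The input of the Tm1 purification, which holds material of the whole head, had 150.5 and 165.9 TPM, and purified Tm1 nuclei 95.7 and 91.3. Mock captures after the first step still held 90.4 and 74.9 TPM, and after both steps 0 and 0.565 TPM. Captures without a driver had 22.4 and 0 TPM by TAPIN and 5.25 and 60.1 by INTACT, and the higher of the latter lies within the range of INTACT libraries that passed. TPM are shares, so these values do not say how much RNA a control held.

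The lamina holds photoreceptor axons, monopolar neurons and glia, and was compared with the optic lobe that remained. In such tissue fewer cells of a type and less RNA per cell cannot be told apart. The median difference, lamina minus optic lobe, was -0.43 for the main members and -0.47 for all genes, and 18 members fell and 1 rose (limma), against 45.4% and 14.2% of 7470 genes. Without lamina_d2 replicate 1, 27 members fell and 2 rose, with 3750 of 7444 genes lower and a median of -0.24 for the main members, so the members cannot be set below or above all genes here. Quantile normalization left 12 lower and 1 higher, and 2155 genes lower and 1551 higher. Of the 18, 15 were subunits of complex I. ND-30, a core subunit, had 167.2, 194.8, 72.2 and 134.3 TPM in the lamina and 259.6, 232.5, 296.1 and 210.2 in the optic lobe, without overlap (-0.89, SE 0.27, adjusted p = 0.0203), and did not pass without opticlobe_d2 replicate 1 (adjusted p = 0.0563). ND-B17.2 had 120.6, 155.6, 68.3 and 133.1 against 237.0, 198.5, 236.6 and 182.3 (-0.89, SE 0.23, adjusted p = 0.00956).

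ND-ASHI was the member that rose in the lamina. It had 225.5, 213.1, 255.8 and 245.3 TPM there and 183.8, 179.2, 201.9 and 174.7 in the optic lobe, without overlap (0.34, SE 0.10, limma adjusted p = 0.0133). ATPsynCF6L fell furthest, with 2.88, 12.4, 3.40 and 6.90 TPM in the lamina and 46.2, 49.1, 39.0 and 45.4 in the optic lobe (-2.81, SE 0.36, adjusted p = 0.000206), and Con fell with it (-2.42, adjusted p = 4.26e-05). Glycolysis rose, with 7 of 12 genes, as did 5 of 12 genes of the mitochondrial genome. Of 8 photoreceptor markers 7 rose and of 5 neuron markers 4 fell, and their part in the result was not tested.

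Appendage muscle was compared with head muscle of the same driver. Here 1 of 52 members fell and 0 rose (limma), against 5.33% and 2.34% of 7297 genes. By limma 4 members had an unadjusted p under 0.05, as did 1628 of the 7297 genes. The medians were 0.07 for the main members, between -0.37 and 0.44 when 1 library was left out, and 0.16 for all genes. The 1 was ATPsynCF6L, with 0 and 1.40 TPM in the appendage libraries and 61.4 and 34.8 in the head libraries (-4.93, SE 0.88, adjusted p = 0.0212), while Con differed by -1.24 (adjusted p = 0.197). Of 6 tested photoreceptor markers 5 fell and of 5 neuron markers 4, and their summed levels were 202.6 and 582.5 TPM in Muscles_App against 3148 and 2844 in Muscles_Head. Fat body and blood markers came to 1813 TPM against 14310, and the part of these cells in the result was not tested. The 2 libraries of each type set the count: without Muscles_Head_d1 replicate 1 it was 0 in both directions, and without Muscles_Head_d1 replicate 2 it was 12 higher and 4 lower.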

How the data were processed

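The authors amplified nuclear or total RNA with the Nugen Ovation v2 kit, pseudo-aligned reads to Ensembl transcripts (dm6) with kallisto 0.43.1 and deposited TPM per library for 13931 coding genes, without spike-ins, tag and ribosomal RNA and rescaled to a fixed sum. Whether strand was used is not given in the sources used here. TPM keeps no depth, so precision is given by the spread between libraries. The authors also deposited, per cell type, another measure, the probability that a gene is on from their mixture model, which covers 62 of the 66 members. All columns used were mapped to samples, with 0 unmapped.

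Levels are means over libraries that passed quality control. Groups were compared with limma 3.58.1 in R 4.3.3 (lmFit, eBayes with trend) on log2(TPM + 1), over genes of at least 10 TPM in at least 2 values, two-sided, Benjamini-Hochberg adjusted over all genes at 0.05. For the 4 classes the values were 67 cell type means, so p-values describe the spread between types. For the other comparisons they were libraries, with cell type as a term for the protocols. The paper describes its libraries as biological replicates. The labels do not say whether they come from separate sets of flies, so those p-values measure the spread between libraries. A fold change on this scale understates that of low genes. Of the 66 members 59 passed the filter for the classes, and a member can pass through the types where it is high. Likeness is Pearson's r of log2(TPM + 1) over cell types. Calculations used Python 3.11.15, pandas 2.3.3 and numpy 2.4.6, and the fits were tested on simulated data. Coordinates were matched by gene identifier.

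Genes named were the members with the 3 highest and 3 lowest means, the 5 largest SDs, those on in at most 20 types with their parents, and the 3 largest changes per comparison and direction. Others, the extremes of each complex, the host genes and the genes most like the members among them, were chosen after their values were seen. Members and lists were chosen with earlier results of these data known. Replicate numbers were checked for pairing by the correlation of deviations from group means, which was 0.153, 0.078, -0.002 and 0.111 for the tissues and -0.272 for muscle. These values show no clear pairing and do not exclude it, and muscle has too few libraries for the check to decide. The main fits did not pair samples.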

Additional observations from a re-analysis of the deposited data

Results flagged for a closer look

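In 36 groups of 4 to 10 libraries or cell types the highest or lowest value was checked for its distance from the others. This marked 3 values, and chance marks about 1 in 20 groups. One LC6 library had a member median of 94.7 TPM, with the other 3 between 52.8 and 55.1. The lamina library d2 replicate 1 had 24.6% of its TPM from the mitochondrial genome, with the others between 11.2% and 12.0%. R7 had 12.3 TPM of ND-15, the lowest of the 4 photoreceptor types, with the others between 24.6 and 25.7. Outside the comparisons, the sub-optimal libraries of Muscles_Head_d2, made with the driver R10F02, had member medians of 41.8 and 90.9 TPM, above the 22.4 and 0 of the TAPIN captures without a driver.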

How the results depend on the processing

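The direction of the median of the main members was the same under every alternative run for the 4 classes, INTACT minus TAPIN and lamina minus optic lobe, while for appendage minus head muscle it lay between -0.37 and 0.44 when leaving out libraries. Counts of members moved more. For photoreceptors, where 12 fell and 1 rose, quantile normalization and a covariate of detected genes each gave 5 and 2, TAPIN libraries 5 lower, the library-level fit with or without the replicate block 0 higher, and leaving out types 3 to 7 lower and 0 to 1 higher. For Kenyon cells (11 lower) the count was 17 with a pseudocount of 0.1 TPM, 7 with 10 TPM, 2 with quantile normalization, 4 with TAPIN libraries, 18 without PAM_4 and Dm1 and 18 without Tm20 as well, 6 with a protocol covariate, 3 with one of detected genes and 1 to 15 when leaving out types. For glia (1 lower, 0 higher) it was 0 lower with a pseudocount of 0.1 TPM, with no filter, with TAPIN libraries (2 higher) and with a protocol covariate (3 higher), and 1 higher with a pseudocount of 10 TPM and quantile normalization. The library-level fit gave 2 lower and 1 higher with and without the replicate block, the covariate of detected genes 2 and 2, and leaving out types 0 to 1 lower and 0 to 1 higher. For muscle (7 lower) it was 21 with quantile normalization, 24 with detected genes, 1 to 3 when leaving out types, and 2 higher with no filter. For INTACT minus TAPIN (8 higher, median 0.57) it was 4 with no filter, 2 with quantile normalization (median 0.23), 2 without Lawf1, and 3 to 11 when leaving out libraries (medians 0.17 to 0.68). With the replicate block it was 3 (median 0.35), in a fit that compares the protocols in Lawf1 alone. For the tissues (1 higher) leaving out libraries gave 1 to 2. For appendage minus head muscle (1 lower, 0 higher) it was 0 lower with a pseudocount of 0.1 TPM or no filter, 1 higher with the replicate block and crossed numbers, and 0 to 4 lower and 0 to 12 higher when leaving out libraries. The protocol and detected genes covariates, the fits without Tm20 and without Lawf1 and the crossed pairing were chosen after the data were seen. The replicate block changed no other count of calls by over 1.5 times. On by 10 TPM in place of the probability, the number of types was 1 for ATPsynepsilonL, 4 for COX5BL, 0 for ND-24L, 11 for ND-49L and 1 for ND-B8. Rescaling without the mitochondrial genome moved no count by over 1.5 times.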
